A study of Mus musculus with 6 samples.

Results

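Genes that write, erase and read marks on histones and DNA, or that slide and evict nucleosomes, were examined for AGO2 binding and for direct miRNA contacts in the newborn mouse brain. The genes were taken by symbol from the mouse RefSeq annotation and comprised the protein-coding genes of the Smarc, Arid, Chd, Kmt, Setd, Kdm, Kat, Hdac, Dnmt, Tet, Cbx and Brd series together with *Ezh1*, *Ezh2*, *Eed* and *Suz12*. This gave 108 of 21900 protein-coding genes, which were placed in 8 classes. The rule uses symbols and no measured value, although the set was proposed with earlier results of these data known. A symbol places a gene in a family and does not by itself make the protein a chromatin enzyme: *Setd3*, for example, encodes a methyltransferase of actin.

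AGO2 chimeric eCLIP had been performed on whole brains of C57Bl/6J pups at P0. In this assay RNA is crosslinked to AGO2, the protein that carries miRNAs, and some miRNAs become ligated to the RNA they were paired with, which gives chimeric reads that name both partners. The libraries comprised 1 WT and 2 *Mov10* Deletion brains, each with an immunoprecipitate (IP) and a size-matched input. MOV10 is an RNA helicase that associates with AGO2. According to the methods, mice with a floxed *Mov10* and Cre expressed from *Emx1*, a driver of the excitatory neuron lineage of the forebrain, were bred with a *Mov10* heterozygous mutant to give *Mov10* Deletion. Cre removes the floxed allele in that lineage alone, so a whole Deletion brain also holds cells in which a floxed copy is not removed. The labels name no treatment and do not say whether a library was made from a single pup. With 1 WT library no test between genotypes could be made, and each difference is described without a p-value.

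Chromatin regulators set which genes a cell can use. The SWI/SNF (BAF) and CHD remodelers, the KMT2 and Polycomb methyltransferases and the DNA methylation enzymes all take part in the step from dividing progenitor to neuron, and several of them are dosage-sensitive genes of human neurodevelopmental disorders. miRNAs act on mRNAs chiefly by pairing of their seed with the 3′UTR, which lowers stability and translation. Chromatin regulators are among the classical targets of neuronal miRNAs, with miR-124 and miR-9 acting on subunits of the BAF complex as progenitors leave the cell cycle.

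The miRNA sequences are shown because these families made up most of the contacts described here or bear on sites shown further on. They are mature sequences from RefSeq written 5′ to 3′, with the seed, bases 2 to 8, in capitals. Of the 16 miRNAs named by the fixed rule, 14 were matched in RefSeq. miR-124-3p and miR-466i-5p are named without a sequence.
let-7a-5p: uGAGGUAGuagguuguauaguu
let-7c-5p: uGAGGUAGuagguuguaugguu
miR-9-5p: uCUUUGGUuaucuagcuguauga
miR-125b-5p: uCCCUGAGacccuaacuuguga
miR-26a-5p: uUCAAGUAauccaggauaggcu
miR-130a-3p: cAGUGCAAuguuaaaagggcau
miR-181a-5p: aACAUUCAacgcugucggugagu
miR-138-5p: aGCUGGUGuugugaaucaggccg
The let-7 sequences share the seed GAGGUAG, so a contact of either was counted for a single let-7 family. The seeds of the others differ from it and from each other.

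AGO2 clusters are stretches of covered RNA found by a peak caller, each with a log2 ratio of IP to input and a −log10 p of that ratio. A cluster was called enriched when both values were at least 3, and was given to a gene when it lay on the gene's strand inside the gene body in mm10. Of the 108 chromatin genes, 107 had an AGO2 cluster in at least 1 library. *Dnmt3l*, a cofactor of DNA methylation in germ cells, had none. The chromatin genes held 3563 clusters in the WT library and 6100 in each *Mov10* Deletion library, of 341169, 586425 and 586419 on all protein-coding genes. The Deletion libraries were deposited on nearly the same cluster coordinates, so their agreement in position is not independent, while their enrichment values are separate. These values hardly correlated. Over the 6090 shared clusters of the chromatin genes, log2 had a Pearson correlation of 0.02 and a Spearman correlation of -0.006. Over all protein-coding genes these were 0.04 and 0.02. Numbers of mapped reads are not in the tables. Reads per cluster could be inferred from the ratio and its p for 122 of 123, 386 of 388 and 270 of 270 enriched clusters, and their median was 41 IP reads in WT, 17 in replicate 1 and 12 in replicate 2. Against 1 input read a cluster needed 16 IP reads to be called in WT, 9 in replicate 1 and 8 in replicate 2. These reads gave a log2 of 3.76, 3.97 and 4.25, so WT needed more reads but a lower ratio. In which library a call was easier to reach was not determined.

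The tissue label was checked on marker genes. All 10 brain markers carried clusters in each library, while markers of other organs did so for 1 of 8 genes in WT and 2 of 8 in each Deletion library. All 3 blood markers carried clusters, and haemoglobin genes held enriched ones in each library. Their part in the results was not tested. *Mov10* itself had 1 enriched cluster of 11 in WT, with a log2 of 4.0 from 19 IP reads over 1 input read. In the Deletion libraries it had 9 clusters, none enriched, with a highest log2 of 2.80 in replicate 1 and 2.84 in replicate 2 from 4 and 3 IP reads over 1 input read. Clusters at this depth do not check the deletion.

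AGO2 enrichment was more frequent on the chromatin genes than on protein-coding genes at large, in each library. An enriched cluster was present on 39 of the 107 genes in WT (36.4%, exact 95% interval 27.4 to 46.3), against 18.8% of the 14369 protein-coding genes that carried any cluster. In *Mov10* Deletion replicate 1 it was present on 70 (65.4%, 55.6 to 74.4) against 43.8%. In replicate 2 it was present on 67 (62.6%, 52.7 to 71.8) against 34.4%. These intervals cover counting error only, and genes are not replicates of a brain.

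Gene size differed along with these counts. The chromatin genes were longer, with a median gene body of 46076.5 nt against 26975 nt, and had a median of 22, 36 and 36 clusters per gene in WT, replicate 1 and replicate 2, against 9, 13 and 13. Among genes with at least 20 clusters, a comparison added after the data had been seen, 27 of 57 chromatin genes were enriched in WT (47.4%, 34.0 to 61.0) against 41.2% of all such genes. In replicate 1 the count was 59 of 80 (73.8%, 62.7 to 83.0) against 75.5%, and in replicate 2 it was 59 of 80 (73.8%, 62.7 to 83.0) against 63.3%. All 3 of these intervals held the share of all such genes. Per cluster, taken over genes of any number of clusters, 3.45% of the clusters of the chromatin genes were enriched in WT (2.88 to 4.11) against 2.06% of all clusters, 6.36% in replicate 1 (5.76 to 7.0) against 5.14%, and 4.43% in replicate 2 (3.92 to 4.97) against 3.08%.

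**Figure D1:**
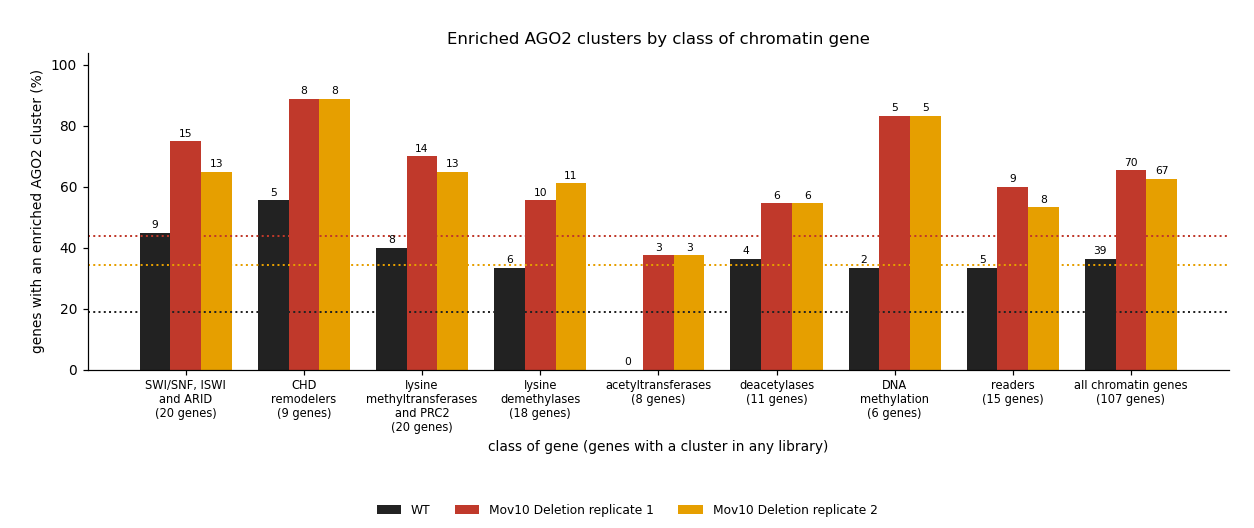
Share of genes in each class, in percent, with at least 1 enriched AGO2 cluster; bars are libraries, the number over each bar counts genes, and dotted lines are the share among all protein-coding genes in the library of the same colour. CHD remodelers were highest, with 8 of 9 genes in each Deletion library, and no acetyltransferase reached enrichment in WT.

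Most genes enriched in WT were enriched in both Deletion libraries too, 34 of 39, against 2086 of 2695 over all protein-coding genes. This did not hold for places. Of the 123 clusters enriched in WT, 53 overlapped a cluster enriched in both Deletion libraries (43.1%, 34.2 to 52.3), against 34.5% on all genes. All 3 libraries had an enriched cluster on 34 genes (31.8%, against 14.5% of all genes), and both Deletion libraries on 54 (50.5%, against 26%). The 34 were *Arid1a*, *Arid1b*, *Arid3a*, *Arid4b*, *Cbx2*, *Cbx5*, *Cbx6*, *Cbx7*, *Chd1*, *Chd5*, *Chd7*, *Chd8*, *Chd9*, *Hdac4*, *Hdac9*, *Kdm2a*, *Kdm2b*, *Kdm4c*, *Kdm6a*, *Kdm6b*, *Kdm7a*, *Kmt2a*, *Kmt2b*, *Kmt2c*, *Kmt2d*, *Kmt5b*, *Setd5*, *Setd7*, *Smarca2*, *Smarcc1*, *Smarcd1*, *Smarcd2*, *Tet2* and *Tet3*. Their highest log2 in WT was below both Deletion values for 15 genes, between them for 12 and above both for 7, so WT lay on neither side throughout. *Cbx6* overlaps *Npcd* on the same strand, and its clusters cannot be given to either gene alone. Whole brains were used, so more bound RNA per cell and more cells that express the RNA cannot be told apart.

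A further 20 genes were enriched in both Deletion libraries and not in WT (18.7%, against 11.5% of all genes), and only *Hdac3* and *Kmt5a* showed the opposite (1.87%, against 1.02%). The 20 were *Arid3b*, *Brd2*, *Chd2*, *Chd4*, *Dnmt1*, *Dnmt3a*, *Ezh2*, *Hdac5*, *Hdac8*, *Kat6b*, *Kdm1a*, *Kdm4a*, *Kdm4b*, *Setd1b*, *Setd3*, *Smarcb1*, *Smarcc2*, *Smarcd3*, *Suz12* and *Tet1*. Of these, 14 had a chimeric contact in WT and 9 reached a log2 of 3 there without the p. The split changed with the number of reads asked of a call. With at least 16 IP reads required in every library, the 20 genes became 2, *Dnmt3a* and *Kdm4b*. The opposite group rose from 2 to 6, and the 34 genes became 25. The fewest IP reads inferred for an enriched cluster were 16 in WT, 9 in replicate 1 and 8 in replicate 2. This minimum could thus take genes from the Deletion libraries alone, so it cannot check the split between genotypes. *Arid5b*, *Cbx1* and *Hdac7* were enriched in WT and in 1 Deletion library. Another 26 genes were enriched in a single Deletion library alone, 14 in replicate 1 and 12 in replicate 2.

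Position was then compared between the groups of genes. Of the 34 genes enriched throughout, 22 (64.7%) held a place where clusters overlapped and were enriched in all 3 libraries, against 54.7% of all such genes. The same cluster was enriched in both Deletion libraries on 25 of the 34 (73.5%), against 67.0% of all such genes. Of the 20 genes seen only in the Deletion brains, 2 (10%), *Arid3b* and *Setd1b*, had the same cluster enriched in both Deletion libraries, against 21.0% of all such genes. The other 18 were called at different places of the gene in each brain. At the level of clusters, 78 were enriched in both Deletion libraries and 55 of them (70.5%, 59.1 to 80.3) overlapped a cluster enriched in WT. Of the 310 enriched in replicate 1 alone 33 did so (10.6%, 7.44 to 14.6), and of the 192 enriched in replicate 2 alone 17 did (8.85%, 5.24 to 13.8). Clusters that recurred between the Deletion brains were thus largely places that were also bound in WT. Over all protein-coding genes the shares were 63.4%, 8.04% and 6.08%. The 20 genes were defined by having no enriched cluster in WT, which itself leaves out most such recurring places. Their lower share thus cannot be read apart from the grouping, and all genes showed it too.

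**Figure D2:**
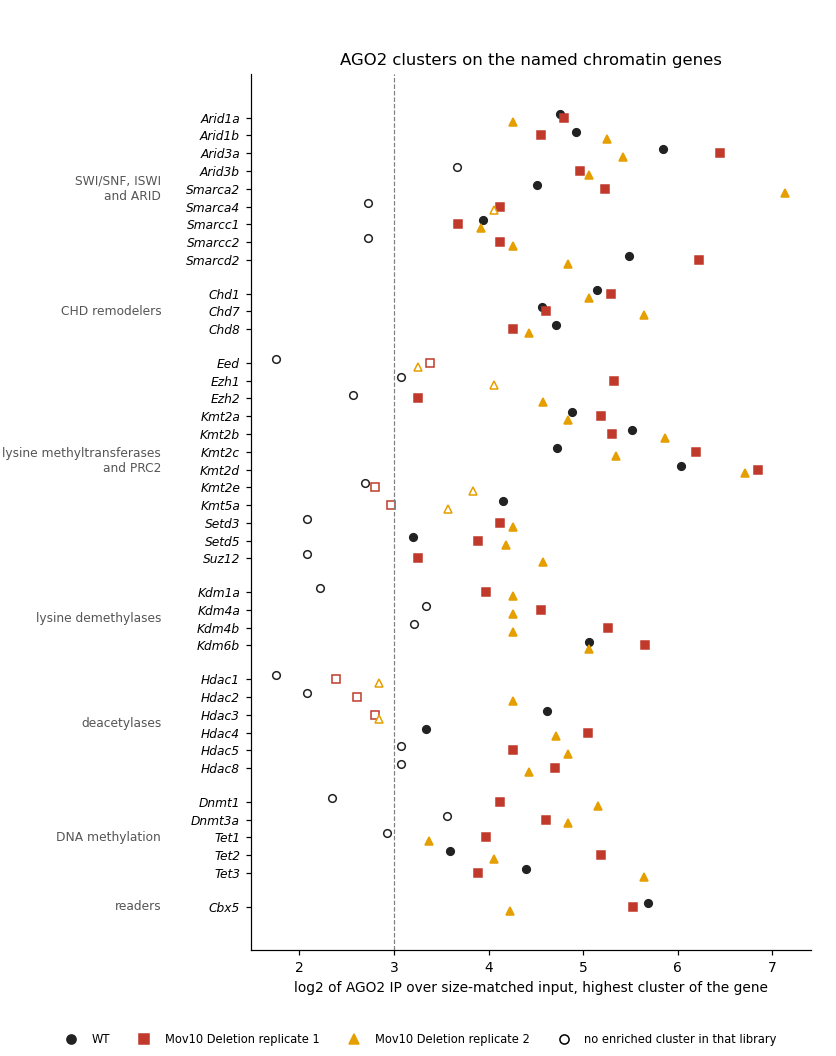
Highest log2 of IP over size-matched input among the clusters of each named chromatin gene, by class; black circles are WT, red squares *Mov10* Deletion replicate 1 and yellow triangles replicate 2, an open symbol marks a library in which no cluster of the gene was enriched, and the dashed line is the log2 minimum of 3. *Kmt2d* lay above 6 in every library, and *Eed*, *Hdac1* and *Kmt2e* were enriched in none.

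Among the nucleosome remodelers of the SWI/SNF and ISWI type and the ARID proteins, 9 of 20 genes were enriched in WT, 15 in replicate 1 and 13 in replicate 2, and 8 in all 3. For this and each later class, the shares over all genes with a cluster were 18.8%, 43.8% and 34.4%, and 14.5% in all 3. The mutually exclusive ATPases of the BAF complex differed. *Smarca2*, encoding BRM, reached a log2 of 4.51 in WT, 5.23 in replicate 1 and 7.14 in replicate 2. *Smarca4*, encoding BRG1, reached 2.73, 4.12 and 4.06, and was enriched in replicate 1 alone. The highest *Smarca2* value lay near the 3′ end in every library. The WT cluster there, chr19:26778140-26778261, was centred 121 nt from the 3′ end and had a log2 of 4.51 on 135 IP over 5 input reads. It overlapped a pair of Deletion clusters. The cluster centred 161 nt from the 3′ end had a log2 of 4.64 in replicate 1 and 7.14 in replicate 2, on 158 IP over 11 input reads and 59 over 1. The cluster at 82 nt had 5.23 and 6.01, on 129 over 6 and 54 over 2. The value of 7.14 thus stood on a single input read.

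The scaffold subunits were divided in WT, while both were enriched in each Deletion library. *Smarcc1*, encoding BAF155, was enriched in all 3 libraries at 3.94, 3.67 and 3.92. *Smarcc2*, encoding its paralog BAF170, reached 2.73 in WT and 4.12 and 4.25 in the Deletion libraries, with 2 and 1 enriched clusters there. With at least 16 IP reads required, *Smarcc1* kept a call in both Deletion libraries and *Smarcc2* did not, so their log2 values do not rank them. *Smarcd2*, which encodes a BAF60 subunit, had 3 of 6, 7 of 10 and 5 of 10 clusters enriched, the highest share among the named remodelers in each Deletion library. Its shared place at chr11:106263433-106263590, centred 340 nt from the 3′ end in WT, had a log2 of 5.31, 5.66 and 4.84 from 47, 29 and 12 IP reads over 1 input read each.

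*Arid1a* and *Arid1b*, the alternative ARID subunits that define canonical BAF, were enriched in every library. *Arid1a* had 5 of 28 clusters enriched in WT, 10 of 73 in replicate 1 and 7 of 73 in replicate 2, with a highest log2 of 4.76, 4.8 and 4.25. *Arid1b* held more clusters than any other chromatin gene, 260, 486 and 486, of which 6, 38 and 9 were enriched, so the Deletion brains differed from each other on this gene. Its highest log2 was 4.93, 4.55 and 5.25.

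*Arid3a*, a DNA-binding factor outside BAF, had 8 of 16, 6 of 29 and 9 of 29 clusters enriched and a highest log2 of 5.84, 6.44 and 5.42. Its shared place at chr10:79954537-79954689 in WT lay 405 nt from the 3′ end, with 5.84, 6.21 and 4.48. Its paralog *Arid3b* had none enriched in WT, where it reached 3.66, but 9 and 6 in the Deletion libraries, with a highest log2 of 4.97 and 5.06. The *Arid3b* cluster enriched in both, chr9:57790438-57790607, lay 169 nt from the 3′ end at a log2 of 4.89 and 4.71, on 17 and 11 IP reads over 1 input read. No chimeric contact was assigned to *Arid3b* in any library.

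Of the 9 CHD remodelers, 5 were enriched in WT, 8 in replicate 1 and 8 in replicate 2, and the 5 of WT were enriched in all 3. All 9 had a chimeric contact in WT. *Chd1*, a remodeler that binds H3K4 methylation, had 6 of 23, 5 of 45 and 4 of 45 clusters enriched with a highest log2 of 5.15, 5.29 and 5.06, close to each other in all 3 libraries. Its shared place at chr17:15770546-15770680 reached 4.25, 5.29 and 5.06. *Chd7*, the gene of CHARGE syndrome, had 4 of 79, 16 of 148 and 15 of 148 enriched at up to 4.56, 4.61 and 5.65. *Chd8*, an autism gene, had 1 of 31, 4 of 56 and 2 of 56 enriched at up to 4.71, 4.26 and 4.42, and lost its calls in both Deletion libraries when 16 IP reads were required.

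Of the 20 lysine methyltransferases and Polycomb repressive complex 2 genes, 8, 14 and 13 were enriched and 7 were enriched in all 3 libraries. Of the 5 Kmt2 genes, which include the large H3K4 methyltransferases, 4 were enriched in every library. *Kmt2d*, the gene of Kabuki syndrome, had 7 of 25 clusters enriched in WT, 15 of 36 in replicate 1 and 10 of 36 in replicate 2. Its highest log2 was 6.03, 6.84 and 6.71, at a single shared place, chr15:98833775-98833907 in WT, 2172 nt from the 3′ end. The reads there were 155, 132 and 88 in the IP against 2 in each input. *Kmt2d* had 6 Deletion clusters enriched in both replicates that overlapped a cluster enriched in WT, and *Arid3a* had 5.

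The other Kmt2 genes had fewer enriched clusters, each with its highest WT value at a place shared by all 3 libraries. *Kmt2b* had 1 of 5, 3 of 15 and 4 of 15 enriched, and at chr7:30575366-30575528 reached 5.52, 5.30 and 5.87. *Kmt2a*, the MLL1 gene, had 4 of 52, 7 of 67 and 2 of 67 enriched, with 4.88, 5.18 and 4.84 at chr9:44848123-44848282, centred 44847 nt from the 3′ end in WT. *Kmt2c* had 4 of 105, 8 of 165 and 8 of 165 enriched, and at chr5:25378128-25378308 reached 4.73, 6.19 and 4.95. In WT this place lay 106423 nt from the 3′ end. Exons and introns were not separated, so whether these places within the gene body are coding was not determined.

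*Kmt2e* was the exception in the family. It carried 34, 52 and 52 clusters and none was enriched, with a highest log2 of 2.69, 2.80 and 3.84, although it had chimeric contacts in every library. *Setd5*, an intellectual disability gene of the SET-domain family, was enriched in all 3 at 3.2, 3.89 and 4.18, with 1, 3 and 1 enriched clusters. *Setd3* reached 2.08, 4.12 and 4.25 and was enriched in the Deletion libraries alone, with 4 and 1 clusters. *Kmt5a*, the H4K20 monomethyltransferase, went the other way, with 2 of 9 clusters enriched in WT at up to 4.15 and none of 6 in either Deletion library, where it reached 2.97 and 3.58.

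No gene of the Polycomb repressive complex 2 core was enriched in WT, and 3 of 4 were enriched in replicate 1 and 2 of 4 in replicate 2. The shares over all genes with a cluster were 18.8%, 43.8% and 34.4%, and 4 genes are too few to tell these counts from them. *Ezh2*, the main H3K27 methyltransferase of progenitors, reached 2.56 in WT with none of 46 clusters enriched, and 3.26 and 4.58 in the Deletion libraries with 1 and 2 of 57. *Ezh1* reached 3.08, 5.32 and 4.06 and was enriched in replicate 1 alone, with 3 clusters. *Suz12* had none of 9 enriched in WT at 2.08, and 1 and 3 of 24 in the Deletion libraries at 3.26 and 4.58. *Eed* was enriched in none, at 1.76, 3.38 and 3.25. None of the 4 kept a call in both Deletion libraries at 16 IP reads.

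Of the 18 lysine demethylases, 6, 10 and 11 were enriched and 6 in all 3 libraries, including both H3K27 demethylases. *Kdm6b*, encoding JMJD3, which removes H3K27 methylation as neuronal genes are switched on, was the most densely bound of the named demethylases. It had 7 of 11 clusters enriched in WT, 16 of 22 in replicate 1 and 9 of 22 in replicate 2, at up to 5.07, 5.66 and 5.06. The shared place nearest its 3′ end, chr11:69399471-69399590, lay 1022 nt away in WT and reached 5.07, 5.13 and 5.06 on 119, 121 and 42 IP reads. *Kdm6a*, or UTX, named here after its values were seen, had a place on the X chromosome at 4.0, 5.63 and 3.89.

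Other demethylases were enriched in the Deletion brains alone. *Kdm4b*, an H3K9 demethylase, reached 3.22 in WT with none enriched, and 5.26 and 4.25 in the Deletion libraries with 14 and 8 clusters. *Kdm4a*, its paralog, reached 3.34, 4.55 and 4.25 with 0, 3 and 3. *Kdm1a*, encoding LSD1, reached 2.22, 3.97 and 4.25 with 0, 1 and 4. Of these, *Kdm4b* alone kept a call in both Deletion libraries when 16 IP reads were required.

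None of the 8 acetyltransferase genes was enriched in WT, which allows a share of up to 36.9% (exact 95% interval), and none of their 214 clusters was. In each Deletion library 3 were enriched, against 43.8% and 34.4% of all genes there and 18.8% in WT. Chimeric contacts were nonetheless present on 6, 5 and 3 of them. *Kat6b*, chosen after its values were seen, was the acetyltransferase enriched in both Deletion libraries. *Kat8*, also chosen after the fact, held the strongest miR-9-3p contact of the chromatin genes, with a score of 18.4 in WT, 14.0 in replicate 1 and none in replicate 2. miR-9-3p was otherwise rare, with 2, 3 and 0 contacts on all members, and the miR-29 seed had 1, 0 and 1.

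Of the 11 histone deacetylases, 4, 6 and 6 were enriched and 2 in all 3 libraries. The signal-responsive class IIa genes *Hdac4*, *Hdac5*, *Hdac7* and *Hdac9* held 3 of the 4 enriched in WT. *Hdac4* had 1 of 112, 5 of 234 and 6 of 234 clusters enriched at up to 3.34, 5.05 and 4.71. *Hdac5* reached 3.08, 4.26 and 4.84 with 0, 5 and 6 enriched. The class I genes were low in WT apart from *Hdac3*. *Hdac1* reached 1.76, 2.38 and 2.84 and *Hdac2* reached 2.08, 2.61 and 4.25, with 1 enriched cluster between them, in replicate 2. *Hdac3*, the catalytic subunit of the NCoR complex, had 1 of 10 clusters enriched in WT at 4.61 and none of 17 in the Deletion libraries, where it reached 2.80 and 2.84. *Hdac8* reached 3.08, 4.71 and 4.42 with 0, 2 and 5.

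Among the DNA methylation genes 2 of 6 were enriched in WT, 5 in replicate 1 and 5 in replicate 2. *Tet2* and *Tet3*, which oxidise 5-methylcytosine, were enriched in all 3 libraries, *Tet3* at 4.40, 3.89 and 5.65 with 6, 6 and 11 clusters and *Tet2* at 3.59, 5.19 and 4.06 with 3, 5 and 3. *Tet1* reached 2.93, 3.97 and 3.37 with 0, 4 and 1. The writers *Dnmt1* and *Dnmt3a* were called in the Deletion brains alone, and the writer *Dnmt3b* in no library. *Dnmt3a*, the de novo methyltransferase of neurons, reached 3.56, 4.61 and 4.84 with 0 of 93, 9 of 152 and 13 of 152 clusters enriched. It kept a call in both Deletion libraries at 16 IP reads. *Dnmt1*, the maintenance enzyme, reached 2.34, 4.12 and 5.16 with 0 of 19, 1 of 42 and 3 of 42.

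Of the 15 Cbx and Brd readers, 5, 9 and 8 were enriched, and 4 of 8 Cbx genes were enriched in every library. *Cbx5*, encoding heterochromatin protein HP1α, had 4 of 16, 5 of 23 and 5 of 23 clusters enriched at up to 5.69, 5.53 and 4.22. At chr15:103192915-103193020, centred 1421 nt from the 3′ end in WT, log2 was 5.69, 5.53 and 3.84 on 61 IP over 1 input read, 53 over 2 and 18 over 3. *Cbx2*, a Polycomb reader named after its values were seen, had 7 of 7, 4 of 7 and 4 of 7 clusters enriched at up to 5.78, 6.26 and 4.58.

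The 22 genes with clusters but no enriched one made up 20.6% of members, against 46.8% of all genes with a cluster. They included *Dnmt3b*, *Eed*, *Hdac1* and *Kmt2e* among the genes already named. Of the 22, 13 had a chimeric contact, so the absence of enrichment over input was not an absence of miRNA contact.

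Chimeric reads gave the miRNA partner. A target cluster is a stretch of RNA on which chimeric reads gathered, assigned to 1 or several miRNAs and deposited with a score of at least 3 whose definition is not given in the sources used here. On the chromatin genes there were 271 target clusters in the WT library, 354 in Deletion replicate 1 and 163 in replicate 2. These fell on 81 genes in WT (75.7%, against 42.6% of all genes with an AGO2 cluster), 86 in replicate 1 (80.4%, against 50.7%) and 68 in replicate 2 (63.6%, against 35.9%). All 3 libraries had one on 57 genes (53.3%, against 25.6%). These shares were not matched for gene length or clusters per gene, both higher on the chromatin genes as given above. The median score was 4.98, 4.64 and 4 in the same order, so replicate 2 had both the fewest target clusters and the lowest scores. Of the 39 genes with an enriched AGO2 cluster in WT, 38 also had a target cluster there. In all, 95 genes had a target cluster in some library and 13 had none.

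**Figure D3:**
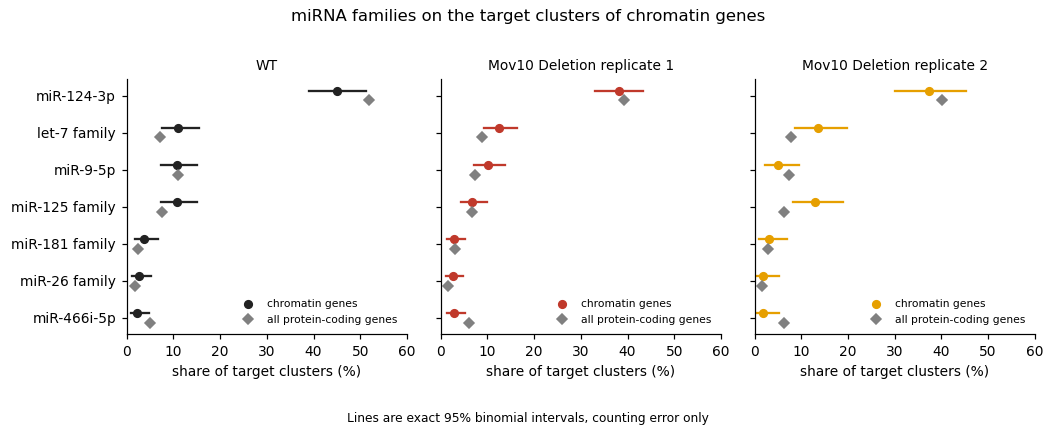
Share of the target clusters of each library, in percent, that were assigned to each miRNA family, on chromatin genes (coloured circles with exact 95% binomial intervals) and on all protein-coding genes (grey diamonds). The let-7 circles lay to the right of the diamonds and the miR-466i-5p circles to the left in all 3 libraries.

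miR-124-3p, a miRNA abundant in neurons, made up the most contacts on the chromatin genes. It took 45.0% of their target clusters in WT (39.0 to 51.2), 38.1% in replicate 1 (33.0 to 43.4) and 37.4% in replicate 2 (30.0 to 45.3). On all genes it took 51.8%, 39.2% and 40.1%. In WT the interval of the chromatin genes left out the share of all genes, which was higher, and in the Deletion libraries the intervals held it. Such intervals treat clusters of the same gene as independent, so they may be too narrow.

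let-7, a family that rises as progenitors differentiate, took a larger share on the chromatin genes than at large in each library. It took 11.1% in WT (7.59 to 15.4) against 7.09%, 12.4% in replicate 1 (9.18 to 16.3) against 8.82%, and 13.5% in replicate 2 (8.66 to 19.7) against 7.85%. These were 30, 44 and 22 clusters in 25, 28 and 16 genes. The difference depended on how clusters given to several miRNAs were treated: with clusters of a single miRNA alone it was 6.06% against 4.83%, 7.40% against 7.37% and 10% against 6.96%. let-7 contacts of the members lay on an enriched AGO2 cluster in 43.3%, 31.8% and 31.8% of cases, against 27.6%, 16.4% and 17% for let-7 contacts on all genes.

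The remaining families varied between libraries. miR-9-5p, which acts with miR-124 in neuronal differentiation, took 10.7%, 10.2% and 4.91% against 11.0%, 7.39% and 7.30% of all. The miR-125 family took 10.7%, 6.78% and 12.9% against 7.55%, 6.68% and 6.22%. miR-466i-5p was less frequent on the members, at 2.21% (0.82 to 4.76), 2.82% (1.36 to 5.13) and 1.84% (0.38 to 5.28), against 4.89%, 6.07% and 6.34%, and each interval left out the share of all genes. With a score of at least 5 it took 1.48% (0.18 to 5.25) in WT against 3.13% and 3.14% (1.03 to 7.19) in replicate 1 against 6.40%, so those intervals held the share of all genes. In replicate 2 it was on 0 of 65 clusters, which allows up to 5.52%. *Arid1b* alone held 2 of the 6 miR-466i-5p clusters of the members in WT and 4 of the 10 in replicate 1.

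**Figure D4:**
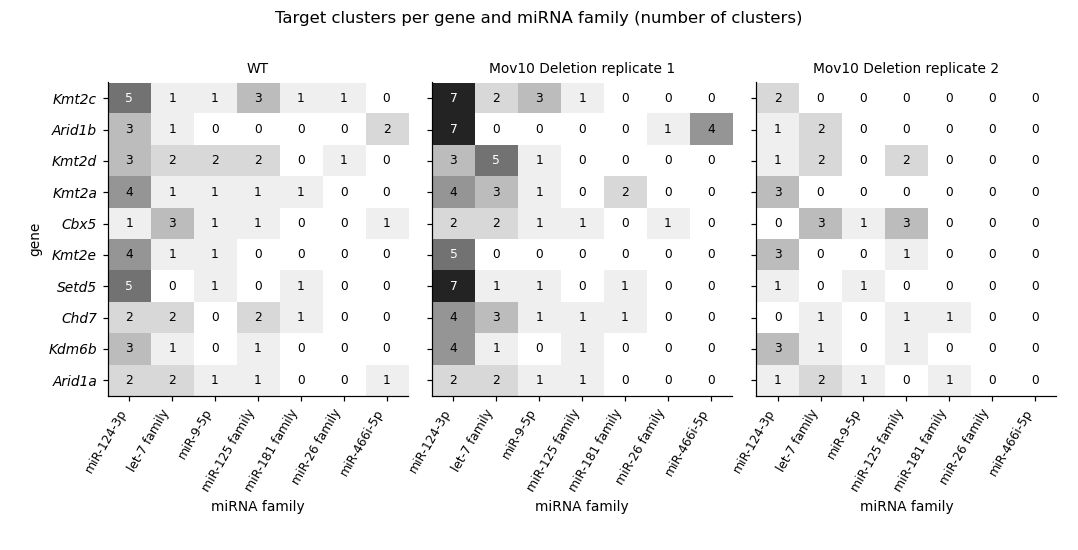
Number of target clusters of 7 miRNA families (columns) on the 10 chromatin genes with the most target clusters (rows), in each library; darker cells hold more clusters. miR-124-3p led on *Kmt2c*, *Setd5* and *Kmt2e*, and let-7 led on *Cbx5* and *Kmt2d*, each summed over the libraries.

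The genes with the most contacts were *Kmt2c* with 34 target clusters summed over the libraries, *Arid1b* and *Kmt2d* with 26 each, *Kmt2a* with 25, *Cbx5* with 22, *Kmt2e* and *Setd5* with 21 each, *Chd7* with 20, *Kdm6b* with 19 and *Arid1a* with 16. *Kmt2c* had 13 target clusters in WT, 18 in replicate 1 and 3 in replicate 2, of which miR-124-3p took 5, 7 and 2. *Setd5* had 8, 11 and 2, with miR-124-3p on 5, 7 and 1. *Kmt2e* had 6, 8 and 7, with miR-124-3p on 4, 5 and 3, and none of these lay on an enriched AGO2 cluster.

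On others let-7 was the leading family when the libraries were summed. *Kmt2d* had 10, 9 and 7 target clusters with let-7 on 2, 5 and 2. *Cbx5* had 7, 6 and 9 with let-7 on 3, 2 and 3, and its count was highest in replicate 2. *Arid1a* had 7, 6 and 3 with let-7 on 2 in each library. By contrast *Arid1b* had 6, 13 and 7 and carried miR-466i-5p on 2, 4 and 0, against 3, 7 and 1 for miR-124-3p.

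Target clusters of 1 miRNA family overlapped in all 3 libraries at 39 WT sites in 26 chromatin genes, which is 12.6% of their 310 WT sites against 14.7% for all genes. The family was miR-124-3p at 20 sites, let-7 at 7, miR-9-5p at 5, miR-125 at 3 and miR-181, miR-130, miR-138 and miR-26 at 1 each. Of the 39, 18 lay on an AGO2 cluster enriched in every library and 13 on none enriched. Only 9 lay in the last 1000 nt of the gene, and the median distance from the 3′ end was 6290 nt. The score was highest in WT at 24 sites and lowest in replicate 2 at 25.

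**Figure D5:**
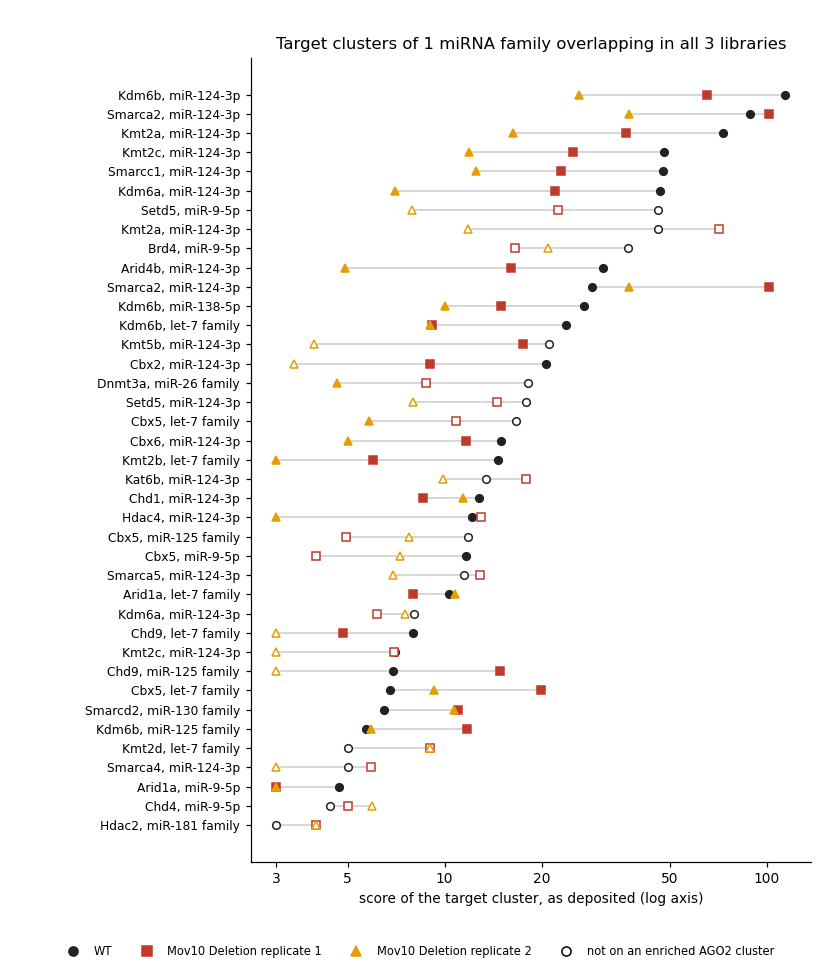
Score of the target cluster, as deposited and on a log axis, at the 39 WT sites where clusters of a miRNA family overlapped in all 3 libraries; each line is a site with its gene and family, and an open symbol marks a library in which the AGO2 cluster beneath was not enriched. The score was highest in WT at 24 sites, with *Kdm6b* and miR-124-3p at 114.

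The highest score in WT was that of miR-124-3p on *Kdm6b*, at chr11:69406313-69406441, with a score of 114 in WT, 65.3 in replicate 1 and 26.1 in replicate 2. AGO2 log2 there was 4.67, 4.36 and 3.76. miR-138-5p was assigned to the same place with scores of 27, 15 and 10. Elsewhere on *Kdm6b* let-7 scored 23.8, 9.10 and 9, at an AGO2 log2 of 4.86, 4.97 and 3.87, and miR-125b-5p scored 5.71, 11.7 and 5.91. The gene thus carried contacts of 4 families that recurred in every library.

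Next came miR-124-3p on *Smarca2*, at chr19:26778189-26778268, only 93 nt from the 3′ end, with scores of 88.9, 101 and 37.4, the highest of the 39 sites in both Deletion libraries. It overlapped the strongest AGO2 place of the gene in every library. An adjacent WT target cluster faced the same Deletion cluster, so this contact counts for 2 of the 39 sites. On *Kmt2a* miR-124-3p scored 73.2, 36.4 and 16.3 at the gene's most enriched place, and 46.1, 71.1 and 11.8 at chr9:44846852-44846934, where AGO2 was not enriched, with a log2 of 1.47, 2.38 and 1.93. On *Kmt2c* it scored 47.8, 25.1 and 11.9 at the place described above, and on *Smarcc1* 47.6, 23 and 12.5. A high chimeric score did not require enrichment over input. On *Setd5* miR-9-5p scored 46.1, 22.5 and 7.93 and miR-124-3p 17.9, 14.6 and 7.98, and AGO2 was enriched at neither place in any library.

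Shared places of other families were found on *Arid1a*, where a cluster at chr4:133679512-133679661, 578 nt from the 3′ end, held let-7 at 10.3, 8 and 10.7 and miR-9-5p at 4.68, 3 and 3. AGO2 log2 at it was 4.09, 3.70 and 3.07. *Dnmt3a* had a miR-26a-5p contact of 18.1, 8.74 and 4.63 at chr12:3913413-3913498, 988 nt from the 3′ end, with an AGO2 log2 of 2.46, 1.95 and 4.84, so it was on an enriched cluster in replicate 2 alone. *Smarcd2* had a miR-130a-3p contact 382 nt from its 3′ end that scored 6.49, 11 and 10.7. *Hdac2* had miR-181 at 3, 4 and 4, at or near the lowest score deposited.

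On *Cbx5* contacts of 3 families recurred. let-7 recurred 1396 nt from the 3′ end with scores of 6.76, 19.9 and 9.26 and again 3353 nt away with 16.7, 10.9 and 5.80. miR-9-5p recurred 7166 nt away at 11.7, 4 and 7.26, and miR-125b-5p 2130 nt away at 11.8, 4.95 and 7.74. The 3′UTR of *Cbx5* in the GENCODE annotation of GRCm39 is 8563 nt, the longest of the chromatin genes.

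Letters complementary to the seed were then looked for in the longest 3′UTR of each gene in GRCm39, on the strand of the transcript alone. The matches searched were CTACCTC for let-7, ACCAAAG for miR-9-5p, TACTTGA for miR-26a-5p, TTGCACT for miR-130a-3p and CTCAGGG for miR-125b-5p, and no motif contains another. TACTTGA was present in 8 of 15 chromatin genes with a miR-26 target cluster (53.3%) and in 5 of 93 without (5.38%), against 14.4% of all genes. TTGCACT was present in 7 of 11 genes with a miR-130 contact (63.6%) and 14 of 97 without (14.4%), against 14.1% of all. CTACCTC was present in 10 of 41 with a let-7 contact (24.4%) and 7 of 67 without (10.4%), against 14.4% of all. For miR-9-5p the counts were 9 of 36 (25%) and 14 of 72 (19.4%), against 18.8% of all. For miR-125b-5p they were 8 of 37 (21.6%) and 15 of 71 (21.1%), against 20.6% of all. Over the 12 miRNAs searched, the share with a match was higher among members with a contact than among members without for all 12. Some of these groups were small, with 1 of 2 genes for miR-29a-3p and 1 of 4 for miR-9-3p. Among all genes with a contact the share was 38.7% for miR-26a-5p, 41.25% for miR-130a-3p and 21.9% for let-7. For miR-9-5p it was 29.3% and for miR-125b-5p 27.3%, both above the members with a contact. The length of the 3′UTR, which was not tested, can raise the share with a match in any group. A match is a description of the letters and not a site of binding.

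The matches of 3 genes whose contacts recurred in these families follow, with 29 letters of the transcript strand each, from GRCm39, the match in capitals. *Dnmt3a* lies on the plus strand, *Smarcd2* and *Cbx5* on the minus strand. They could not be laid on the mm10 clusters, because the builds differ. By distance from the annotated gene end in each build, no match shown lay inside its WT target cluster. The *Dnmt3a* match lay 1618 nt away and its cluster 945 to 1030 nt. The *Smarcd2* match lay 3270 nt away and its cluster 344 to 421 nt. Gene ends came from GENCODE for matches and RefSeq for clusters, so this cannot decide whether a match lies under its cluster.
*Dnmt3a* and miR-26a-5p, chr12:3962819-3962825: attttaactttgTACTTGAaaactaagtg
*Smarcd2* and miR-130a-3p, chr11:106154389-106154395: ctttttgggtatTTGCACTatttggggag
*Cbx5* and let-7, chr15:103103317-103103323: ttgaattttaatCTACCTCgtctcatttt
*Cbx5* and let-7, chr15:103101388-103101394: gataatactgacCTACCTCatggggtgtt
*Cbx5* and miR-9-5p, chr15:103107137-103107143: aagcattcctgtACCAAAGaggcatcagc
*Cbx5* and miR-9-5p, chr15:103105377-103105383: aaagagttcacaACCAAAGgtgaaatact
*Cbx5* and miR-125b-5p, chr15:103102639-103102645: gagagaattgaaCTCAGGGccttgtacat
The spacing could be compared between builds. The let-7 matches of *Cbx5* lie 1929 nt apart in GRCm39, and the midpoints of its let-7 clusters in WT lay 1957 nt apart in mm10. The miR-9-5p matches lie 3820 and 2060 nt from the farther let-7 match, and the miR-9-5p cluster lay 3813 nt from the farther let-7 cluster. The miR-125b-5p match lies 678 nt from that let-7 match, and the clusters lay 1223 nt apart. Spacing in the builds was thus close for let-7 and for a single miR-9-5p match, and not for miR-125b-5p or the other miR-9-5p match.

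Places near the 3′ end held a minority of clusters. Of the enriched AGO2 clusters of the chromatin genes, 21.1% in WT, 14.9% in replicate 1 and 11.5% in replicate 2 lay in the last 1000 nt of the gene, against 19.8%, 10.8% and 10.4% on all genes. Of their target clusters 13.3%, 9.89% and 16% did, against 17.3%, 12.8% and 13.9%. Target clusters of the members lay on an enriched AGO2 cluster in 19.9%, 17.2% and 18.4% of cases, against 15.0%, 11.7% and 11.8% on all genes.

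Other genes of the same complexes were taken from a list of 63 partners. Enriched AGO2 clusters were present on 21 of them in WT, 42 in replicate 1 and 32 in replicate 2, with 15 enriched in all 3, 11 in both Deletion libraries and not in WT, and none in WT alone. The shares over all genes with a cluster were 18.8%, 43.8% and 34.4% by library, 14.5% for all 3, 11.5% for Deletion alone and 1.02% for WT alone. Of the 14 BAF partners 6, 12 and 10 were enriched. Of the 17 Polycomb partners 4, 6 and 5 were, or 23.5%, 35.3% and 29.4%, near or below the shares over all genes. *Bcl11b*, a zinc-finger BAF subunit of deep-layer cortical neurons, had 17 of 53, 39 of 126 and 33 of 126 clusters enriched at up to 5.69, 6.38 and 5.90, more than any chromatin gene in WT. *Jarid2*, an accessory subunit of Polycomb repressive complex 2, had 6, 11 and 7 at up to 5.51, 5.30 and 4.68. These partners were named after their values were seen.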

How the data were processed

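AGO2 chimeric eCLIP libraries came from P0 whole brains, 1 WT and 2 *Mov10* Deletion, each with a size-matched input. Per the submitters' processing notes the authors used UMI-tools 1.1.1, cutadapt 3.2, STAR 2.7.7a and Bowtie 1.2.3 on mm10, and PCR duplicates were removed by molecular identifier. The authors called clusters on the IP and deposited for each the log2 ratio of IP to input and the −log10 p of that ratio. The authors also deposited target clusters of miRNA chimeric reads with a score of at least 3, whose definition is not given in the sources used here. Read totals are unknown, so the depth is known only through inferred reads per cluster. No per-sample column was left unused (0).

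Clusters were joined on strand to mm10 RefSeq gene bodies (GRCm38.p6) for 21468 protein-coding genes with a strand. For 23 members the strand came by name from GENCODE on GRCm39. Exons and introns were not separated, as no mm10 exons were used. A cluster was enriched at log2 and −log10 p of at least 3. IP and input reads were inferred from the library's fold per read pair (0.845 in WT, 1.74 and 2.39 in the Deletion replicates) and the p, to a tolerance of 0.001. On simulated data this recovered 100% of 319, 717 and 982 enriched clusters for 3 library constants. Shares carry exact Clopper-Pearson 95% intervals, which cover counting error only. Intervals over clusters treat the clusters of a gene as independent and may be too narrow. Nothing was tested between genotypes.

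The members, lists and rules were chosen with earlier results of these data known. Members were named by rule: the 10 with the most target clusters, the 8 enriched in all 3 libraries with the highest lowest log2, those enriched in WT and neither Deletion library, the 10 enriched in both Deletion libraries and not in WT with the highest lower log2, and a fixed list. For miRNAs the rule took the 8 most frequent per library with miR-9-3p and miR-29. Alternatives changed the thresholds, the minimum of reads, the treatment of clusters given to several miRNAs, the minimum score, and the distance from the 3′ end. Python 3.11.15, pandas 2.3.3, numpy 2.4.6, scipy 1.17.1 and matplotlib 3.10.9 were used. The result of 1 partner gene on its own is not reported here, though the counts of partners include it.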

Additional observations from a re-analysis of the deposited data

How the results depend on the processing

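Of 126 values recomputed, 83 stayed within 1.5 times the reported count or within its interval and 43 moved. Enriched genes in *Mov10* Deletion replicate 2 fell from 67 to 36 at a −log10 p of at least 5. Genes enriched in both Deletion libraries fell from 54 to 31 there and to 27 with at least 16 IP reads. Genes enriched in both and not in WT fell from 20 to 6 and to 2, and genes enriched in all 3 became 20 at a log2 of at least 4. Genes enriched in WT alone became 0 at a log2 of at least 2 and 6 with 16 IP reads. Every WT call with inferred reads already met that minimum of 16. Leaving out a Deletion replicate gave 67 to 70 genes for the Deletion group, 35 to 36 for all libraries, 3 to 4 for WT alone and 32 to 34 for Deletion alone. Target genes in every library were 59 to 76 in the same way.

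The share of clusters enriched moved to 2.72%, 3.66% and 1.92% in WT, replicate 1 and replicate 2 at a −log10 p of 5, to 5.81%, 8.84% and 5.69% at a log2 of 2, and to 1.52%, 2.87% and 2.46% at a log2 of 4. Assignments in WT fell from 354 to 231 for clusters of 1 miRNA and to 166 at a score of at least 5, where replicate 1 fell to 180 and replicate 2 to 69. At that score target genes fell to 42 in replicate 2 and to 29 in all libraries, miR-124-3p took 51.9% in WT, miR-9-5p 6.92% in replicate 1 and miR-466i-5p 0 of 65 clusters in replicate 2. With clusters of 1 miRNA let-7 took 6.06% in WT and 7.40% in replicate 1. Enriched clusters within 2000 nt of the 3′ end were 42.3%, 27.6% and 23.0% and within 500 nt 9.76%, 9.02% and 6.67%. Target clusters were 25.1%, 19.8% and 25.8%, and 7.75%, 3.67% and 9.82%.

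No paired analysis was possible because there was 1 WT library, the groups shared only replicate number 1, and no result came from a test. Only 1 WT brain was measured, so genotype and library cannot be told apart. Against 1 input read the WT library needed more IP reads for a call, at a lower log2. Genes of at least 20 clusters and clusters of a single seed family were alternatives chosen after seeing the data. With the latter let-7 took 9.17%, 9.63% and 12.1% on members against 6.11%, 8.04% and 7.42% on all genes.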
